A study of Mus musculus with 2 samples.

Results

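Group 2 innate lymphoid cells (ILC2) of the mouse lung were taken from single-cell RNA sequencing of CD45+ lung cells, CD45 being the surface protein of all white blood cells, as 246 of 19087 kept cell barcodes. The control library gave 134 of 9691 kept barcodes and the library from mice exposed to diesel exhaust particles (DEP) gave 112 of 9396. A kept barcode had at least 500 unique molecular identifiers (UMIs, the count of distinct captured transcripts), 200 or more detected genes, and no more than 10% of its UMIs from mitochondrial genes. The cells were chosen by their own counts: at least 1 Gata3 UMI, at least 4 UMIs summed over Gata3, Il1rl1, Arg1, Areg and Il17rb, none of Cd3e, Mcpt8 or Cd79a, at most 2 over C1qa, C1qb and C1qc, and under 1% of UMIs from S100a8 and S100a9. The levels of these genes in the cells are therefore descriptions of the selection.

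Each group was 1 library. The control sample carried the genotype label Ccr2-/- (KO) and the surface label CD45.1+, and had no treatment. The exposed sample carried the same genotype label and CD45.3+, and had inhaled DEP at 500 µg/m3 in a whole-body chamber for 1 h a day, 5 days a week, for 2 weeks. The series' design names C57BL/6J wild-type and Ccr2-/- mice, so the CD45 label differs together with the exposure and the 2 cannot be told apart, nor are the number or the pooling of animals stated. Ccr2, the chemokine receptor named by the genotype, gave 427 UMIs over the control cells and 303 over the exposed cells, with at least 1 UMI in 83.6% and 79.5% of them. The reads of this assay come from the 3' end, and the position of the deleted part is not given, so these transcripts do not check the genotype. With 1 library per group there is no replicate error: the intervals given are exact 95% intervals of counting error only, and no p-value is given.

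ILC2 are lymphocytes without rearranged antigen receptors that live in tissues such as the lung. They depend on the transcription factors GATA3 and RORα and on interleukin-7 signals. They respond to alarm signals of damaged epithelium, mainly interleukin-33 through its receptor ST2 (the product of Il1rl1), interleukin-25 and TSLP, and they release interleukin-5, interleukin-13, GM-CSF (Csf2) and the epidermal growth factor receptor ligand amphiregulin (Areg), which act on eosinophils, macrophages and epithelium.

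GATA factors bind DNA at a core of GATA flanked by A or T before it and by A or G after it. The start regions of the interleukin-33 receptor gene and of 3 effector genes, Il5, Csf2 and Areg, are shown because the description that follows turns on these genes. Each line holds the 250 bases before the gene's start, read 5′ to 3′ on the gene's strand from RefSeq with the GRCm38.p6 build, and capitals mark each match on either strand to the motif AGATAA, to its variant TGATAA, or to the forms AGATAG and likewise TGATAG. The regions are chr1:40429320.0-40429569.0 on the plus strand for Il1rl1, chr11:53720544.0-53720793.0 on the plus strand for Il5, chr11:54249900.0-54250149.0 on the minus strand for Csf2, and chr5:91139349-91139598 on the plus strand for Areg.
Il1rl1: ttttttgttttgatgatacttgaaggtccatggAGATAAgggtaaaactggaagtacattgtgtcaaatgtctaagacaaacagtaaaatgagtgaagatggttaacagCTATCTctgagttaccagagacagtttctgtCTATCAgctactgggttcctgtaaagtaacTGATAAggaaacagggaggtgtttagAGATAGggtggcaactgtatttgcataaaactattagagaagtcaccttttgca
Il5: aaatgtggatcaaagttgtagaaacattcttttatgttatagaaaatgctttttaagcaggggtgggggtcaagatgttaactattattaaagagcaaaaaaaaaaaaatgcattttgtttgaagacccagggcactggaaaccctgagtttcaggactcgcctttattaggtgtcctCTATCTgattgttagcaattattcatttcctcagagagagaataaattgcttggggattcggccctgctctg
Csf2: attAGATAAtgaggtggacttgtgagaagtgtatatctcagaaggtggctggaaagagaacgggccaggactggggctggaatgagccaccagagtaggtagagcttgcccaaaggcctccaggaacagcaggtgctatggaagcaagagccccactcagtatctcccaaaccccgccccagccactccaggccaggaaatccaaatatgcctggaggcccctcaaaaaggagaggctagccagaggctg
Areg: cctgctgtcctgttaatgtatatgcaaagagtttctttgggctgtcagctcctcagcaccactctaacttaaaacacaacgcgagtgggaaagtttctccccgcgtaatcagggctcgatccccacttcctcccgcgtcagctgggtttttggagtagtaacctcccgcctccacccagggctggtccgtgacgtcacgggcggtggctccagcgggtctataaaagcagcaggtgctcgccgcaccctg

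The Il1rl1 region held 5 matches, 217, 141, 110, 80 and 54 bases before the start. The Il5 region held 1 match 72 bases before the start, the Csf2 region 1 match at 247 bases and the Areg region none. Over the windows from 250 bases before to 50 after the start, 8166 of 27025 genes (30.2%) held at least 1 match. Of the 20 genes that marked the cells most strongly, listed further on, 15 were in the table and 5 (33.3%) held a match, which is near that share. A match describes the letters and is not evidence of binding.

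The cells made up 1.38% (95% interval 1.16 to 1.64) of the control library's kept barcodes and 1.19% (0.982 to 1.43) of the exposed library's. The ratio of the shares was 0.862 with an interval of 0.665 to 1.12, so a difference in abundance was not detectable at these numbers of cells. Since both are shares of the sequenced CD45+ cells, a change in other cells moves them too. Depth was alike in both: the median cell had 4647.5 UMIs and 1680.5 genes in the control library, and 4882.5 UMIs and 1730 genes in the exposed library. The libraries shared 21 kept barcode sequences, none of them among these cells. The choice was checked at its edge: 10 control and 9 exposed barcodes with a marker sum of 3 stood just outside, and Rora, which the rule did not use, had a UMI in 2 and 5 of them. Just inside, at a sum of 4, stood 7 and 1 barcodes, with Rora in 6 and 0 of them. Barcodes that met the sum without any Gata3 numbered 37 and 73, and had a median of 12548 and 14310 UMIs, with Lyz2, a macrophage and neutrophil gene, in 83.8% and 93.2%. They were left out by the rule.

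Some of the selected barcodes carried transcripts of other cell types. No doublet caller was run. Counting UMIs of B cell, myeloid, neutrophil, NK cell and basophil or mast cell marker lists together with the MHC class II genes Cd74, H2-Aa, H2-Ab1 and H2-Eb1, 18 of 134 control cells (13.4%) and 9 of 112 exposed cells (8.04%) had 10 or more. These barcodes were deeper at the median, with 9385 and 7130 UMIs against 4390 and 4817 in the rest. Some, from 3880 and 4374 UMIs up, lay within the range of the rest. Together they held 32.9% of the control and 16.8% of the exposed UMIs. The myeloid list (14 and 11 of its 15 genes seen) summed to 3686 UMIs over all control cells and 1657 over all exposed cells, of which 5 cells held 93.7% and 96.0%. The NK list summed to 456 and 446 UMIs. Of the 18 and 9 barcodes, 9 and 4 reached 10 UMIs on the NK list, and 9 and 4 on the myeloid list or the MHC class II genes. B cell and basophil or mast cell lists reached 10 UMIs in no cell. Gata2, Ms4a2 and Tpsb2 were at 0 in the selected cells of both libraries. The main comparisons between the libraries below are therefore given over all selected cells and again over the 116 control and 103 exposed cells with under 10 such UMIs, called clean cells here. T cell genes were not part of this count, so clean cells were not screened for them. A list of 9 T cell genes reached 10 UMIs in 25 control and 28 exposed selected cells. It summed to 1064 and 1192 CPM (counts per 1000000 UMIs) over all selected cells, and to 1293 and 1288 CPM over clean cells. For the MHC class II and marker genes used in that count, the clean set fixes the outcome, and their values in it are no comparison.

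**Figure D1:**
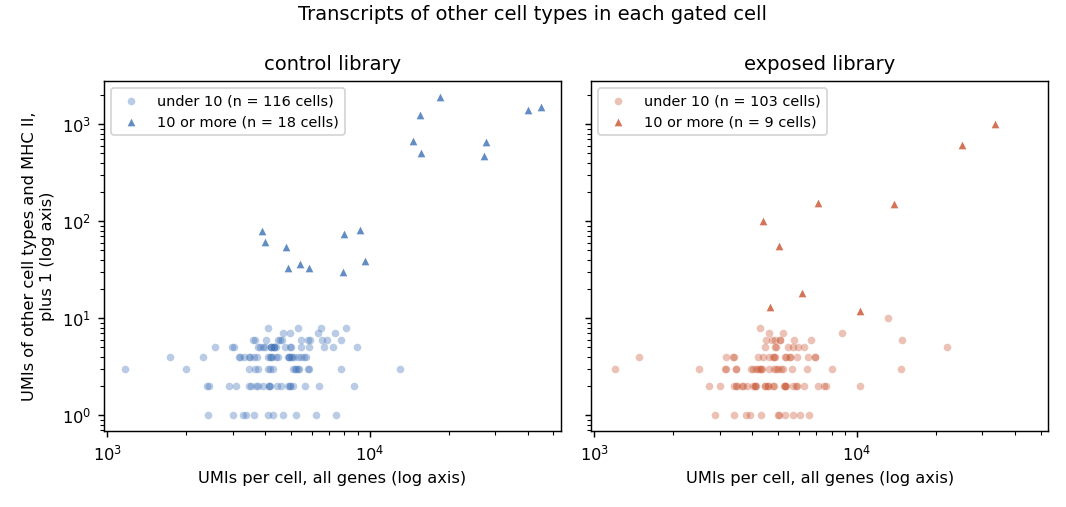
Total UMIs of each selected cell against its UMIs of other cell types plus 1, both on log axes, control and exposed library side by side. Circles are clean cells and triangles cells with 10 or more such UMIs, 18 control and 9 exposed ones. The highest totals are 44663 and 33426 UMIs among triangles and 12984 and 21984 among circles, and some triangles lie within the range of the circles.

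Beyond the genes used for the choice, the cells carried a set of transcripts that was rare elsewhere in the lung's white blood cells. The 20 leading genes by level against all other kept barcodes, taking the lower of both libraries, ran from Dach2 (180-fold) to Nrgn (29.6-fold). They included the gate genes Arg1 (152-fold), Il1rl1 (79.1-fold) and Gata3 (30.9-fold), the cytokine Csf2 (120-fold), the chemokine receptor Ccr8 (114-fold), the interleukin-2 receptor chain Il2ra (37.7-fold) and the transcription factors Hlf (49.6-fold) and Klf5 (31.5-fold). Also among them were the bone morphogenetic protein Bmp7 (33.7-fold), the ubiquitin ligase Rnf128 (73.5-fold), the phosphatase Ptpn13 (55.8-fold), the adhesion protein Cntn1 (115-fold), Stab2 (82.8-fold), Pard3 (99.1-fold), Ccdc184 (146-fold), Igsf5 (34.2-fold) and an olfactory receptor gene, Olfr1259 (105-fold). These ratios rest on cells picked by some of the same counts and carry no test. Barcodes with Cd3e, far more numerous, held more of the control library's UMIs than these cells for Gata3 (49.5% against 29.3%), Il2ra (45.8% against 33.6%) and Bmp7 (54.9% against 31.2%). For Arg1, Csf2, Ccr8 and Il1rl1 the selected cells held more. Csf2, a given marker that the rule did not use, gave 685 UMIs or 845 CPM (counts per 1000000 UMIs of the cells) over the control cells and 620 UMIs or 945 CPM over the exposed cells. At least 1 Csf2 UMI was seen in 53.0% (44.2 to 61.7) of control and 57.1% (47.4 to 66.5) of exposed cells.

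To compare detection at equal depth, each barcode was thinned to 1000 UMIs, which all 246 cells reached. Csf2 then appeared in 28.4% and 33.0% of the cells, against 0.233% and 0.0931% of Cd79a+ barcodes, B cells that should lack it. Rora, the gene of RORα, appeared in 54.5% and 50.9%, against 0.972% and 0.745% of Cd79a+ barcodes and 8.10% and 6.22% of Ncr1+ barcodes, NK cells. Barcodes that met every other condition but carried Cd3e, T cells by that gene, had Csf2 in 5.48% and 5.41% and Rora in 38.4% and 40.5% at the same depth. Rora was thus common in both kinds of barcode, while Csf2 was mostly in the selected cells. All 5 given markers were present: Gata3 in every cell by the rule, Il1rl1 in 88.8% and 86.6%, Arg1 in 62.7% and 69.6%, and Areg in 39.6% and 42.9% of the unthinned cells. All of them except Csf2 were counted in the marker sum, so their presence describes the choice and is no check of it.

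**Figure D2:**
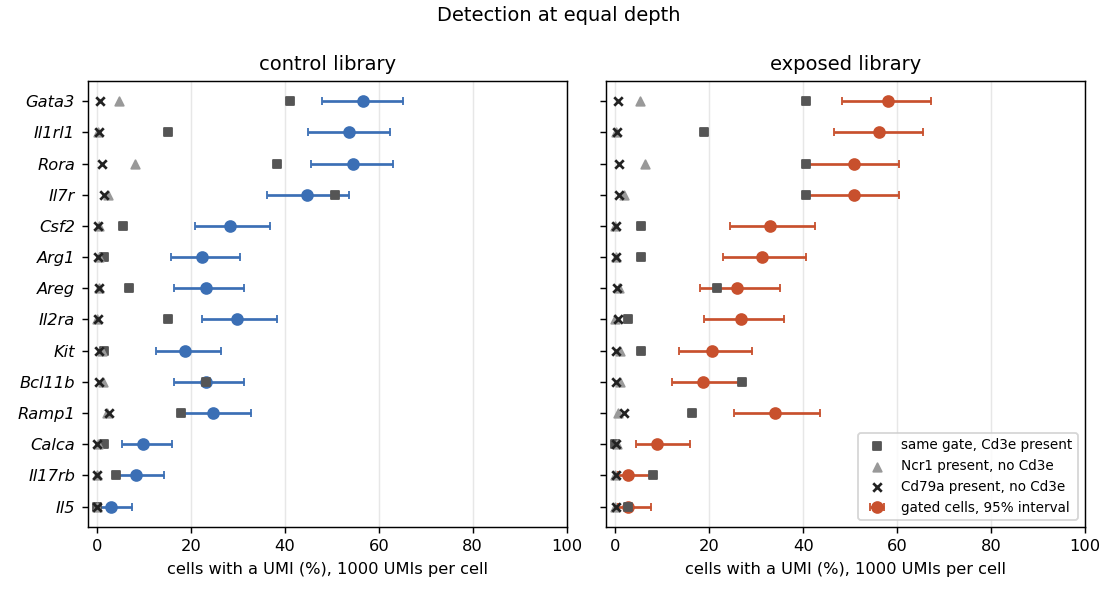
Percent of barcodes with a UMI at 1000 UMIs per barcode for 14 genes, with 95% exact binomial intervals on the selected cells, beside Cd3e+ barcodes that met the rest of the rule, Ncr1+ and Cd79a+ barcodes. Csf2, which the rule did not use, stands far above the comparison barcodes in both libraries, and Rora less so. Arg1 is also far above them. Like Gata3, Il1rl1, Areg and Il17rb it was counted by the rule, so its excess over Ncr1+ and Cd79a+ barcodes describes the choice.

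Transcripts of T cell receptor genes were present unevenly. The β chain constant genes Trbc1 and Trbc2 had a UMI in 67.9% and 73.9% of control and 70.5% and 83.0% of exposed cells. The α chain constant gene Trac gave 25.9 and 24.4 CPM, against 443 and 453 CPM in the Cd3e+ barcodes that met the rest of the rule. Cd3d gave 29.6 and 22.9 CPM against 590 and 659 CPM in the same comparison. The γ chain constant gene Tcrg-C4 was instead higher in the selected cells, at 91.3 and 102 CPM against 50.5 and 31.5 CPM. Requiring Cd3d, Cd3g, Trac, Trbc1 and Trbc2 to be at 0 as well left 12 control and 7 exposed cells. Reads of near-identical constant genes may be split or lost by the counting, so these levels are uncertain. Of 13 genes of other innate lymphoid cells, 8 were seen in the control and 9 in the exposed cells, with 89 and 105 UMIs in 28 and 27 cells. The list summed to 110 and 160 CPM over all cells and 42.3 and 62.3 CPM over clean cells. Il17a, Il17f and Il22 were at 0 in the selected cells of both libraries, and Tbx21 gave 8 and 3 UMIs.

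The cells held a large part of each library's transcripts of several type 2 signals. Il5, which draws eosinophils, gave 24 UMIs in 17 control cells and 29 in 15 exposed cells. These were 75.0% of the 32 Il5 UMIs in the whole control library and 69.0% of the 42 in the exposed library, from 1.38% and 1.19% of the barcodes. The cells thus held most Il5 transcripts of each library. They also held 61.7% of 1111 and 73.8% of 840 Csf2 UMIs, and 51.8% of 141 and 93.8% of 192 UMIs of the chemokine Ccl1. Calca, the precursor of calcitonin gene-related peptide, gave 136 UMIs in 34 control cells and 85 in 22 exposed cells, 58.6% and 49.1% of all its UMIs. Il13 was scarce, with 4 UMIs in 3 control cells and 8 in 1 exposed cell, and Il4 gave 15 and 7. Cd3e+ barcodes held 63.1% and 66.4% of the Il4 UMIs. The neutrophil-attracting chemokine Cxcl2 gave 785 and 513 UMIs, but at 968 and 782 CPM it was below the 1531 and 1386 CPM of Cd79a+ barcodes. It was in 47.4% and 40.8% of the clean cells, with a highest cell at 116 and 128 UMIs. The tenth of clean cells with most Cxcl2 held 79.5% and 86.7% of its UMIs there, and the source of these transcripts was not tested. Il9, Il3 and Penk were at 0 in the selected cells of both libraries. There 3 counts allow up to 3.70 CPM in the control and 4.57 CPM in the exposed cells. Areg was spread over more cell types: the selected cells held 23.5% of 1227 and 24.7% of 1982 UMIs, below the 42.0% and 45.2% in barcodes outside all named classes.

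**Figure D3:**
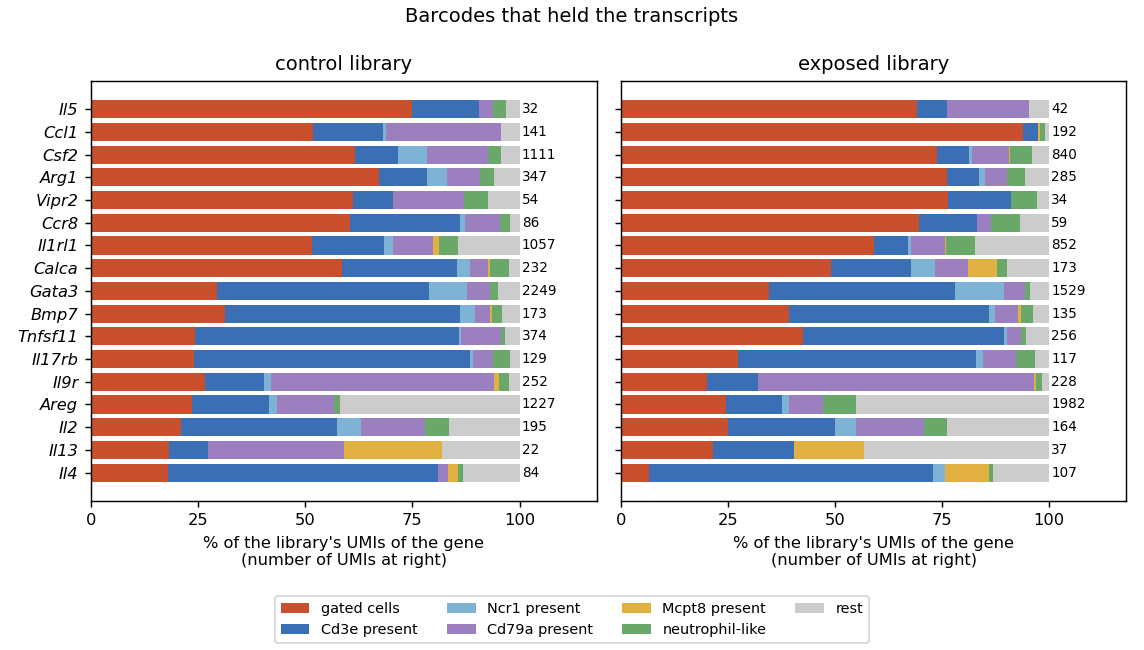
Percent of each library's UMIs of 17 genes that came from the selected cells and from other barcode classes, stacked, with the number of UMIs at the right. The selected cells hold 75.0% and 69.0% of Il5 and 61.7% and 73.8% of Csf2, but 23.5% and 24.7% of Areg.

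Output was uneven from cell to cell. Over the clean cells the tenth of cells with most Ccl1 held 82.2% (control) and 87.6% (exposed) of its UMIs, and for Calca the shares were 83.7% and 84.5%. For Csf2 they were 64.1% and 61.1%, with a highest cell at 77 and 63 UMIs. Il1rl1 was even by comparison, at 25.5% and 25.6%, as was Gata3 at 28.3% and 27.7%, although the rule set a minimum for Gata3 and counted Il1rl1 in its sum. Of control cells with Calca 72.4% (52.8 to 87.3) had Csf2, against 49.4% (38.5 to 60.4) of those without it, and of exposed cells 81.0% (58.1 to 94.6) against 53.7% (42.3 to 64.7). The cells with Calca were deeper, at 4927 against 4276 and 5275 against 4809 median UMIs, and the part of depth in this was not tested. For Il5 and Csf2 they were 56.3% (29.9 to 80.2) against 55.0% among control cells and 85.7% (57.2 to 98.2) against 55.1% among exposed cells, with only 16 and 14 clean cells holding Il5.

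Across the transcriptome most genes of these cells lay within 1.5-fold between the libraries. A gene was counted as different when it had at least 50 UMIs over both libraries and at least 1.5-fold between them in CPM, a rule of size alone. Of 3985 genes with 50 UMIs, 214 (5.37%) were past 1.5-fold higher in the exposed cells and 356 (8.93%) lower. Over the clean cells 164 of 2924 (5.61%) were higher and 186 (6.36%) lower, and 98 genes were past the threshold as higher and 76 as lower in both sets. The median log2 ratio (exposed over control, 0.5 counts added) of the counted genes was 0.00 over all cells and -0.01 over the clean cells. Genes typical of the selected cells had higher ratios over all cells than over clean cells, as with Gata3 at -0.01 and -0.24, and the barcodes left out as not clean held 32.9% of the control UMIs against 16.8% of the exposed.

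Among the effector genes, amphiregulin and Ccl1 stood out. Areg (chr5:91139599-91148432 in GRCm38) gave 288 UMIs in 53 control cells, 355 CPM (315 to 399), and 489 UMIs in 48 exposed cells, 746 CPM (681 to 815). The ratio was 2.10-fold (1.81 to 2.44), with log2 ratios of 1.07 over all and 0.86 over clean cells. Areg is 1 of the 5 genes that chose the cells, and with Areg left out of the marker sum the log2 ratio was 1.14. It was 0.78 when cells had equal weight, and 0.53, inside 1.5-fold, when cells were thinned to 1000 UMIs. The number of cells with Areg was alike and the counts per cell differed. The highest cell had 25 UMIs in the control and 79 in the exposed clean cells, and 7 and 14 clean cells had 10 or more. These counts are not corrected for depth: the 2 highest cells had 4301 and 21984 UMIs in all. The next exposed cell, with 48 Areg UMIs, had 14858. Cd3e+ barcodes that met the rest of the rule also had more Areg in the exposed library, 244 against 55.6 CPM, while all other kept barcodes gave 22.9 against 15.6 CPM. Ccl1 (chr11:82176657-82305690), a ligand of Ccr8, gave 73 UMIs in 25 control cells and 180 in 29 exposed cells, a ratio of 3.05-fold (2.31 to 4.06), and 2.31-fold over clean cells. The highest cell held 30.1% of the Ccl1 UMIs in the control and 30.0% in the exposed cells. Among the 12 control and 7 exposed cells without any of the 5 further T cell genes, Areg had 15 and 6 UMIs, a log2 ratio of -0.48 (-2.06 to 0.92), and Ccl1 8 and 2, a log2 ratio of -0.99 (-3.82 to 1.15).

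Most other effector genes with enough counts lay within 1.5-fold. Of the 25 listed, 15 had 50 UMIs, with 3 past 1.5-fold higher and none lower, where 5.37% and 8.93% of all counted genes were. The higher ones were Areg, Ccl1 and the cytokine Lif (44 and 59 UMIs, 1.66-fold, 1.10 to 2.51). Over clean cells 13 had 50 UMIs, with 2 higher (Areg and Ccl1) and 1 lower, the chemokine Ccl5 with 91 and 29 UMIs. Among all counted genes of the clean cells 5.61% were higher and 6.36% lower. The list's median log2 ratio, over the 17 genes with 20 UMIs, was 0.23 over all and -0.06 over clean cells. Csf2 had a log2 ratio of 0.16 and -0.10, Il5 0.57 and 0.17, and Calca -0.37 and -0.55, where the first value is over all and the second over clean cells. Arg1, arginase 1, had 0.20 and -0.11. Among the 12 and 7 cells without the further T cell genes Csf2 gave 59 and 3 UMIs, a log2 ratio of -3.31 (-5.41 to -1.80).

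**Figure D4:**
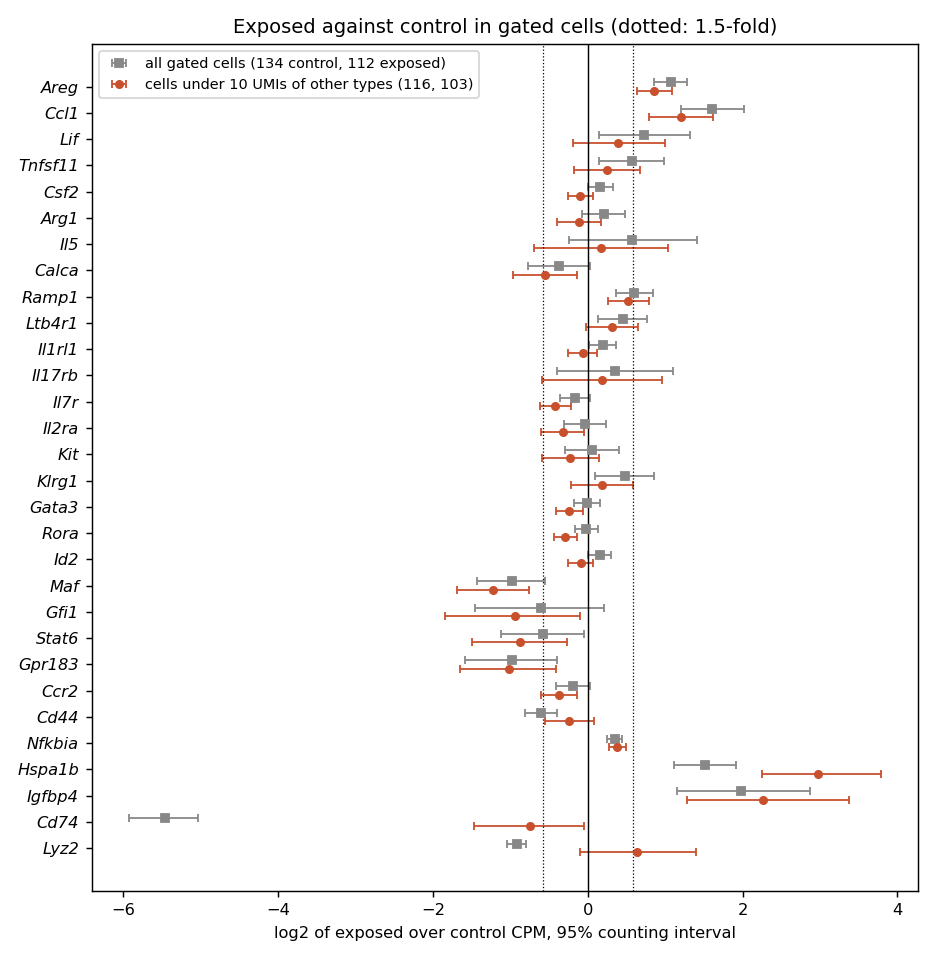
Log2 ratio of exposed over control CPM for 30 genes with 95% counting intervals, over all selected cells and over clean cells, dotted lines at 1.5-fold. Areg, Ccl1, Hspa1b and Igfbp4 lie to the right and Maf and Gpr183 to the left in both sets, while Cd74, by which clean cells were in part defined, lies at -5.46 over all cells.

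Most receptors through which ILC2 sense their surroundings lay within 1.5-fold between the libraries. Il1rl1 (chr1:40429570-40465415) gave 545 and 503 UMIs, 672 and 767 CPM, a ratio of 1.14-fold (1.01 to 1.29), and 0.955-fold over clean cells. Il7r, the interleukin-7 receptor, gave 526 and 378 UMIs with log2 ratios of -0.17 and -0.42. Of the 29 cytokine receptor genes, 26 had 50 UMIs, with 2 past 1.5-fold higher and 4 lower, where 5.37% and 8.93% of all counted genes were, and a median log2 ratio of -0.08 in both sets. Over clean cells 1 of 21 was higher and 2 lower, where 5.61% and 6.36% of all were. Il18rap, a chain of the interleukin-18 receptor (39 and 51 UMIs), and Il27ra, the interleukin-27 receptor (52 and 66 UMIs), were the higher ones, at 1.62-fold and 1.57-fold. The decoy receptor Il1r2 (46 and 4 UMIs), the tumour necrosis factor receptor Tnfrsf1b (72 and 28), Il17ra (71 and 35) and Tgfbr1 (40 and 16) were lower. Clean cells held 4 and 3 of the Il1r2 UMIs and 28 and 28 of those of Il17ra, so these differences lay outside the clean cells. Within clean cells the TSLP receptor Crlf2 was higher, with 33 and 63 UMIs (1.90-fold), and Il10ra, an interleukin-10 receptor chain, was lower with 100 and 60 UMIs (0.598-fold), as was Tnfrsf25 with 60 and 37 (0.614-fold).

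ILC2 also read signals from nerves and lipid mediators. Ramp1, part of the receptor for calcitonin gene-related peptide, gave 264 and 324 UMIs, a ratio of 1.52-fold (1.29 to 1.79), with log2 ratios of 0.60 over all and 0.53 over clean cells. It was the 1 gene of 9 with 50 UMIs in this list of 16 that passed 1.5-fold, and over clean cells none of 9 did. The shares of all counted genes were 5.37% higher and 8.93% lower, and 5.61% and 6.36% over clean cells. The log2 ratio of Ramp1 was also inside 1.5-fold, at 0.45, after thinning. The leukotriene B4 receptor Ltb4r1 gave 162 and 179 UMIs and the prostacyclin receptor Ptgir 92 and 63. Nmur1, the neuromedin U receptor, gave 0 and 1 UMI. The prostaglandin D2 receptors Ptgdr and Ptgdr2 were at 0 in the selected cells of both libraries, although Ptgdr2 is used to mark ILC2 in other settings. The vasoactive intestinal peptide receptor Vipr2 gave 33 and 26 UMIs, 61.1% and 76.5% of those in each library.

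Of the 29 transcription factor genes 24 had 50 UMIs, and none was past 1.5-fold higher while 5 were lower, against 5.37% and 8.93% of all counted genes. Over clean cells none of 19 was higher and 3 were lower, against 5.61% and 6.36% of all. Rora (chr9:68653786-69388246) gave 897 and 717 UMIs, 1106 and 1093 CPM, with log2 ratios of -0.02 over all and -0.29 over clean cells. Gata3 (chr2:9857078-9890034), by which the cells were chosen, gave 660 and 530 UMIs, 814 and 808 CPM. The list's median was -0.04 over all and -0.23 over clean cells. Maf (chr8:115682942-115707794), a factor that controls cytokine genes in lymphocytes, gave 150 UMIs in 78 control cells and 61 in 42 exposed cells. Its ratio was 0.503-fold (0.367 to 0.681), with log2 ratios of -0.99 over all and -1.22 over clean cells. No single cell held over 5.33% of the Maf UMIs, so the difference was spread over many cells. Among the 12 and 7 cells without further T cell genes it gave 3 and 6 UMIs, a log2 ratio of 1.67 (-0.42 to 4.07). Gfi1, a repressor needed for ILC2 development, gave 38 and 20 UMIs (0.651-fold, 0.359 to 1.15), and 0.512-fold over clean cells. Stat6, the factor downstream of the interleukin-4 receptor, gave 87 and 47 UMIs, at 0.668-fold over all and 0.543-fold over clean cells. Stat5b (37 and 14) and Nfil3 (50 and 24) were lower over all cells and had under 50 UMIs over clean cells, while Runx1 (153 and 77) had a log2 ratio of -0.68 over all and -0.07 over clean cells.

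Of 20 genes of tissue residence and migration with 50 UMIs among 28 listed, 4 were lower and none higher, where 8.93% and 5.37% of all counted genes were, with a median log2 ratio of -0.16. Over clean cells 1 of 19 was lower and 1 higher, where 6.36% and 5.61% of all were, with a median of -0.24. Gpr183, an oxysterol receptor that guides lymphocytes in tissue, gave 86 and 35 UMIs, at 0.503-fold (0.330 to 0.753) over all and 0.491-fold over clean cells, but its log2 ratio was -0.02 after thinning to 1000 UMIs. Cd44, Itgb1 and Klf2 were past 1.5-fold lower over all cells, but over clean cells had log2 ratios of -0.24, -0.26 and -0.27. Ccr7, a lymph node homing receptor, had 58 and 59 UMIs over all cells and 5 and 45 over clean cells, and 7 exposed cells held it. Of 14 inhibitory genes with 50 UMIs among 20 listed, Cd200r1, an inhibitory receptor, was higher (42 and 55 UMIs, 1.62-fold) and Dgkz lower. The shares of all counted genes were 5.37% higher and 8.93% lower. This list's median log2 ratio was 0.07, and no gene of 13 was past the threshold over clean cells, where 5.61% and 6.36% of all were. Of 19 metabolism genes among 26, Fabp5 and Hk2 were lower, where 8.93% of all counted genes were, with a median of 0.04. None of 14 passed over clean cells, where Hk2 had 29 and 18 UMIs and Fabp5 9 and 10.

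Immediate early and NF-κB genes were abundant in both libraries. The leading ones were Junb with 2796 and 2778 UMIs and Nfkbia, the inhibitor of NF-κB, with 1851 and 1903. Of 27 immediate early and stress genes 1 was higher and 1 lower, where 5.37% and 8.93% of all counted genes were. The list's median log2 ratio was 0.00, and over clean cells 2 of 26 were higher and 2 lower, where 5.61% and 6.36% of all were. Hspa1b, an inducible heat shock protein, gave 76 and 176 UMIs (2.86-fold), of which 1 cell held 40.8% and 33.0%, and over clean cells 17 and 138 UMIs (8.08-fold). Hspa1a, its near-identical neighbour, gave 84 and 78, and over clean cells 10 and 67, and reads of these genes may be split between them. Atf3, a stress-induced factor, was lower, with 141 and 54 UMIs and log2 ratios of -1.07 over all and -0.75 over clean cells, but -0.07 after thinning. The endoplasmic reticulum chaperone Hspa5 had -0.48 over all and -0.69 over clean cells. Of 22 NF-κB genes with 50 UMIs none was higher and 4 were lower, where 8.93% of all counted genes were lower, with a median of -0.04. Over clean cells 1 of 18 was higher and 1 lower, where 5.61% and 6.36% of all were, with a median of 0.01. Bcl2a1b (157 and 48 UMIs) and Cd83 (99 and 29) were lower over all cells, and clean cells held 20 and 16 of the Bcl2a1b and 6 and 6 of the Cd83 UMIs. Gadd45g, with 51 and 15 UMIs over all, had 28 and 7 over clean cells.

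Genes known to respond to the chemicals of exhaust gave little signal. The aryl hydrocarbon receptor senses polycyclic aromatic compounds. Its targets Cyp1a1, Cyp1b1, Ahrr and Nqo1 were at 0 in the selected cells of both libraries. The limits of 3.70 and 4.57 CPM given above apply to them. The receptor itself, Ahr, gave 24 and 19 UMIs and its target Tiparp 124 and 93. Of the 12 listed genes 3 had 50 UMIs, with none higher and 1 lower, where 5.37% and 8.93% of all counted genes were. The lower one was the receptor's partner Arnt (39 and 17 UMIs, 0.539-fold, 0.286 to 0.975, and 28 and 13 UMIs over clean cells). Of 16 genes of the NRF2 antioxidant response with 50 UMIs among 24, none was higher and 5 were lower, against 8.93% of all counted genes, with a median log2 ratio of -0.42. Over clean cells none of 12 was past 1.5-fold, where 5.61% of all were higher and 6.36% lower, and the median was -0.10. The metallothionein gene Mt1 shows this: 212 and 53 UMIs over all cells, but 7 and 6 over clean cells. The ferritin light chain Ftl1 had a log2 ratio of -0.61 over all and 0.02 over clean cells.

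The largest differences rested on a small number of cells that held most of the UMIs. Of 8 MHC class II genes with 50 UMIs among 12 listed, 7 were lower in the exposed library, where 8.93% of all counted genes were, with a median log2 ratio over the 10 genes with 20 UMIs of -4.44, or -3.36 with genes at 0 set to their bound of 3 counts. Cd74, the invariant chain, gave 2427 UMIs in 49 control cells and 44 in 25 exposed cells, and 1 control cell held 38.6% of the control UMIs. The 4 genes Cd74, H2-Aa, H2-Ab1 and H2-Eb1 summed to 4761 UMIs in the control cells, of which 5 cells held 96.8%, and to 101 in the exposed cells. At least 1 of these UMIs was seen in 77 control and 49 exposed cells. Of 11 interferon-induced genes with 50 UMIs among 29, 5 were lower and none higher, where 8.93% and 5.37% of all counted genes were. Over clean cells 1 of 7 was lower and 1 higher, where 6.36% and 5.61% of all were. The list's median was -0.53 over all and -0.01 over clean cells. Ifitm3 gave 182 and 10 UMIs over all and 9 and 8 over clean cells. The myeloid list had a median of -1.10. Other genes far lower in the exposed library were mostly held by few cells. The chemokine Ccl22 had 160 UMIs and none, at least 43.1-fold lower, with 76.9% of its UMIs in 1 of 5 control cells, Ccl17 had 76 and 2 UMIs, and Fabp1 149 and 23. Cst3, cystatin C, was widespread, in 93 control and 72 exposed cells, and had 1564 and 169 UMIs over all cells but 123 and 123 over clean cells, with 36.3% of the control UMIs in 1 cell. Tppp3, Pmaip1 and Mt2 were also at 3 or fewer UMIs per library over clean cells. Cxcl10 (68 and 2 UMIs) and the costimulatory ligand Tnfsf9 (70 and 9) remained lower over clean cells, with 16 and 2 and with 26 and 9 UMIs.

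**Figure D5:**
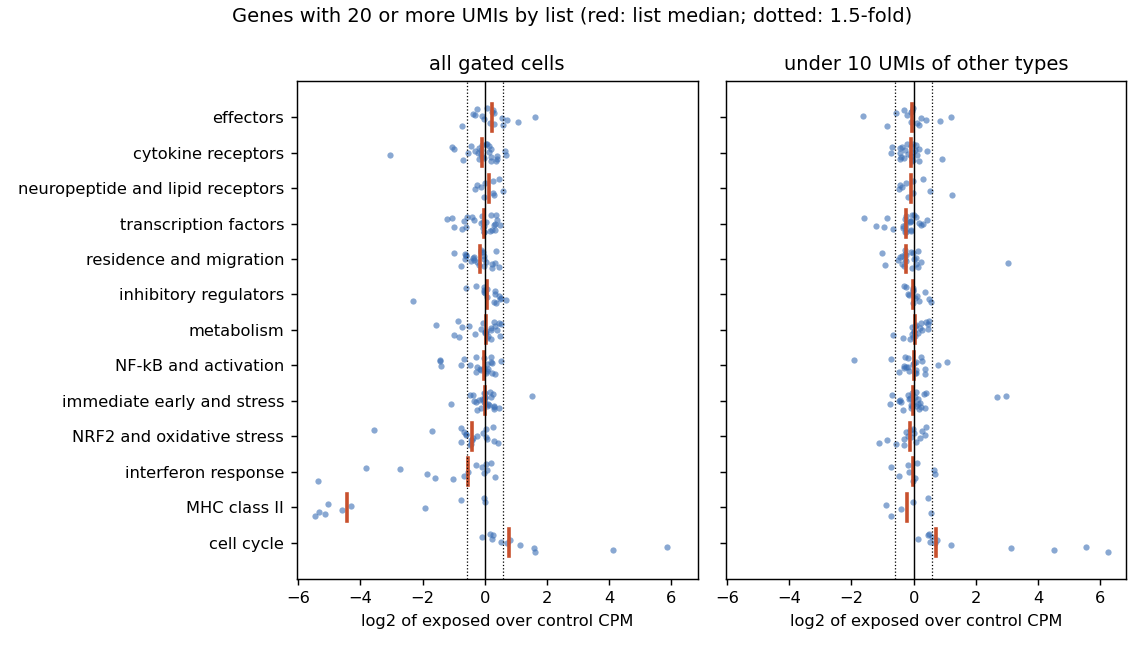
Log2 ratios of single genes in 13 lists, over all selected cells and over clean cells, with the list's median in red. The interferon and NRF2 medians lie at -0.53 and -0.42 over all cells and at -0.01 and -0.10 over clean cells, and the MHC class II list is low over all cells, while in clean cells its level is fixed by their definition.

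On the higher side the genes with the firmest ratios, beside Areg and Ccl1, were of several kinds. Igfbp4, which binds insulin-like growth factors, gave 16 UMIs in 8 control cells and 52 in 20 exposed cells, a ratio of 4.02-fold (2.26 to 7.54), and 4.98-fold over clean cells. Neurl3, a ubiquitin ligase, gave 206 and 333 UMIs in 85 and 75 cells, a ratio of 2.00-fold (1.67 to 2.39), and 1.64-fold over clean cells. Iws1, a transcription elongation factor, had 16 and 41 UMIs (3.17-fold, and 3.08-fold over clean cells), and Upf3b, of nonsense-mediated decay, had 19 and 45 (2.93-fold, and 2.46-fold). AY036118, an annotated transcript on chromosome 17, gave 125 and 361 UMIs (3.57-fold, and 2.84-fold over clean cells), and it was also higher in the exposed library in Ncr1+ barcodes (245 against 124 CPM) and Cd79a+ barcodes (216 against 126 CPM). Of the 20 marking genes, Nrgn (191 and 266 UMIs, 1.72-fold) and Ptpn13 (90 and 120 UMIs, 1.65-fold) were past 1.5-fold higher over all cells, and they stood at 1.38-fold and 1.34-fold over clean cells. Rnf128 (272 and 167 UMIs) and Dach2 (42 and 29) were lower over clean cells, at 0.639-fold and 0.656-fold.

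Dividing cells were few. Of 8 cell cycle genes with 50 UMIs among 20, 3 were higher in the exposed library and none lower, where 5.37% and 8.93% of all counted genes were. The list's median log2 ratio was 0.77 over all and 0.72 over clean cells. Stmn1 gave 40 and 98 UMIs over all and 10 and 92 over clean cells, 1 cell holding 56.1% of all the exposed UMIs. Mki67, a marker of cycling cells, gave 15 and 38 UMIs, 1 cell holding 92.1% of the exposed UMIs, and 0 and 38 over clean cells, at least 12.6-fold higher. Cells with at least 3 UMIs over 11 proliferation genes numbered 3 of 134 (2.24%) and 4 of 112 (3.57%), and among clean cells 0 of 116, which allows up to 3.13%, and 4 of 103 (3.88%, 1.07 to 9.65). In the exposed clean cells 2 cells held 88.0% of the UMIs of these 11 genes. The median log2 ratio of the whole list over all cells was 0.41 without the highest barcode of each gene. It was 0.083 when cells had equal weight. The list without these 2 cells was not tested.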

How the data were processed

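Single-cell RNA libraries were prepared with the 10x 3' v3.1 kit from CD45+ lung cells, per the labels' protocols. The deposited values are raw UMI counts per gene and barcode in 1 matrix per library. The submitters' processing notes name Cell Ranger 3.1.3 and the mm10 build, and the count table's header gives version 3.1.0. The libraries held 62047730 and 67030914 UMIs. Barcodes were filtered and chosen as the report states, in Python 3.11.15 with numpy 2.4.6, scipy 1.17.1 and pandas 2.3.3.

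Counts were summed over the chosen cells of each library and divided by their total to give CPM. Log2 ratios had 0.5 counts added, folds had none, and intervals are exact (Poisson for CPM, Clopper-Pearson for shares, conditional binomial for ratios). They cover counting error only. No test across animals was possible with 1 library per group. Gene lists were described by counts past 1.5-fold and by medians over genes with at least 20 UMIs. Thinning used 1 seeded draw. The code was tested on simulated counts. Coordinates are from GENCODE for GRCm38.

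Named genes were the 10 highest and 10 lowest by the interval bound nearest to 0, 2 by count and 2 by ratio from each list, and 20 marking genes. The first of these left out antigen receptor, sex-linked, haemoglobin, ribosomal protein and mitochondrial genes, and genes under 0.5 times the level of other barcodes. The cells and lists were chosen with earlier results of these data known, and other genes were named after their values were seen. Some named genes are not reported here. Alternatives varied the rule, filters, depth and weighting. The removal of cells with 10 or more UMIs of other types, and of Areg from the marker sum, was chosen after seeing the data.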

Additional observations from a re-analysis of the deposited data

How the results depend on the processing

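The share ratio of 0.862 lay between 0.848 and 1.12 under the other settings tried, except at 0.602 with the 5 further T cell genes at 0 (12 and 7 cells) and 1.24 without cells with 3 or more UMIs of other types (68 and 82 cells). The 214 higher and 356 lower genes became 406 and 674 without the Gata3 requirement, 35 and 41 with the further T cell genes at 0, 126 and 109 without cells with 3 or more UMIs of other types, 26 and 31 after thinning, 646 and 955 with 20 UMIs required and 68 and 113 with 100. The lower count became 186 over clean cells. Of 1391 values of named genes under these settings, 50 turned the direction of a gene past 1.5-fold, and 3 of 231 list medians turned one that large. A further 335 of the gene values and 12 of the medians lay outside the counting interval of the value reported (for a median, the median of its genes' bounds). The further T cell genes and the stricter limits leave few cells or UMIs, and the cause of the other shifts was not tested. Some of the 50 turned gene values rested on equal or few UMIs, or on genes that defined the cells, as stated below. No paired analysis was possible because each group is 1 library.

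Without the Gata3 requirement, which adds 37 control and 73 exposed barcodes rich in Lyz2, the median log2 ratios were 0.053 for MHC class II, -0.29 for cell cycle and 0.78 for myeloid genes. The log2 ratios there were 0.11 for Cd83, 0.0031 for Cst3, 0.023 for Gpr183, 0.013 for H2-Aa, 0.093 for H2-Ab1, 0.16 for H2-DMb1, 1.77 for Ifitm3, 1.43 for Ly6c2, 0.80 for Lyz2, -0.073 for Mki67, 0.38 for Pmaip1, -0.78 for Stmn1, 0.19 for Tnfrsf1b, 0.90 for Tnfsf9 and 0.055 for Wfdc21. With the further T cell genes at 0 they were -0.48 for Areg, 1.14 for Arnt, 1.05 for Atf3, -0.99 for Ccl1 and 0.038 for Chil3. Maf had 1.67 there, Mki67 -3.13 and Tcrg-C1 0.49. Fabp1, Fabp5, Tppp3 and Wfdc21 each had 0.77, the value that equal counts give with 0.5 added. Cd3d, held at 0 by this setting, had the same value, so these genes show no measured difference there. Without cells with 3 or more UMIs of other types they were 1.91 for Ccl17, 0.12 for Chil3, 0.33 for Fabp5, 0.84 for H2-Aa, 1.17 for H2-DMb1, 0.074 for Il1r2, 0.81 for Ly6c2, 1.31 for Lyz2 and 0.81 for Pmaip1. Over clean cells they were 2.32 for Ccl17, 0.14 for Fabp5, 0.02 for Ftl1 and 0.56 for H2-Aa. There they were also 1.58 for H2-DMb1, 0.65 for Ly6c2, 0.64 for Lyz2 and 0.48 for Pmaip1. These rested on 0 and 2 UMIs of Ccl17, 0 and 1 of H2-DMb1 and 2 and 3 of Pmaip1. In both sets the values of genes used to remove cells, such as Lyz2, and over clean cells H2-Aa, are no comparison. Ccl17 had 0.016 with a marker sum of 3 and 1.85 with 6, where Cd83 had 0.036. After thinning Fabp5 had 0.91 and Tnfsf9 0.62, and Mki67 had -0.97 without its highest barcode.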

Other observations

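Hba-a1, an α globin gene known from red blood cells, stood at a higher pooled level in the ILC2 than in all other kept barcodes together. It was picked out after its values were seen. It gave 57 UMIs in 25 control cells and 86 in 33 exposed cells, 70.3 and 131 CPM, against 0.249 and 0.261 CPM in all other kept barcodes. At 1000 UMIs per barcode it was in 5.97% and 10.7% of the cells and in 0.117% and 0% of Cd79a+ barcodes. The β globin gene Hbb-bs was at 0 in the cells of both libraries. Hba-a1 has a near-identical copy, so its count is uncertain. The highest cell held 12.3% of its control UMIs and 30.2% of its exposed UMIs.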
